A study of Homo sapiens with 2 samples.

Results

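Chromatin accessibility was examined at the ZNF genes of chromosome 19, the protein-coding genes of this chromosome whose symbol is ZNF followed by a number. In GENCODE release 44 on hg38 they numbered 249 of 19970 protein-coding genes of chromosomes 1 to 22 and X, and 3 of them were readthrough genes that join 2 neighbouring loci. Peaks were assigned to a ZNF gene when they lay within 4000 bp of any of its annotated transcript starts or in its gene body. The data came from ATAC-seq, in which the transposase Tn5 inserts adapters into accessible DNA, of SUM159 cells, an established claudin-low, mesenchymal-like triple negative breast cancer line. Both cell populations carried the lentiviral dCas9-KRAB vector, a Cas9 without nuclease activity fused to a KRAB repressor domain. The No gRNA population had the empty guide vector and the All gRNA population had 4 guides to the promoter of ZEB1. Each group held 1 library, so the comparisons are between these 2 libraries, no test between conditions was possible, and all intervals are 95% intervals that cover counting error only. The peak lists record called peaks, so the absence of a peak says only that none was called.

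Most of these genes encode KRAB zinc finger proteins, a family that expanded by tandem duplication and lies in long arrays on chromosome 19. The C2H2 fingers bind DNA, frequently in transposable elements, and the KRAB domain recruits the co-repressor TRIM28, which in turn brings the methyltransferase SETDB1 and heterochromatin protein 1, so that histone H3 lysine 9 becomes trimethylated around the bound site. The fingers are encoded by the long last exon, and the arrays themselves are known to carry the same mark over these exons. The KRAB domain in dCas9-KRAB is that of ZNF10, a member of the same family encoded on chromosome 12.

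Along the chromosome, 238 of the 249 genes fell into 11 sub-clusters, numbered in chromosomal order and defined as at least 3 ZNF genes with gaps of at most 500 kb. The remaining 11 genes were solitary. A KRAB A box was found by sequence comparison in the encoded protein of 210 of the 249 genes, and the proteins held a median of 12 C2H2 fingers, from 0 to 36, with the most in ZNF208, ZNF729 (34) and ZNF91 (31). The genes were spread over both strands, with 134 on the forward and 115 on the reverse strand.

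The heights given below are read pileups at the summit of a peak. They were solved from the fold and −log10 p that the authors' peak caller wrote, and the All gRNA library had 0.743 times the depth of the No gRNA library, so scaled All gRNA heights were divided by this value. The lowest pileup of any listed peak was 5 reads in No gRNA and 4 in All gRNA. The targeted gene, ZEB1, had a peak of 27 reads at its main start in No gRNA and none in All gRNA, although both libraries had a peak within 4000 bp of one of its starts. Among the markers of the cell type, all 6 mesenchymal genes examined had a main start peak in both libraries and none of the 6 epithelial genes had one in either. Within 4000 bp of any start, however, the epithelial genes EPCAM and KRT19 had peaks in both libraries and CDH1 had one in No gRNA only.

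The promoters that the results below turn on are shown first, as the 250 bases before the RefSeq start (GRCh38.p14), 5′ to 3′ on the strand of the gene. Capitals mark CCGGAAG or its reverse complement, the core recognised by ETS family factors. The first 4 belong to sub-cluster 4 and include 2 promoters with a peak and 2 without. The fifth carried the called fall with the narrowest interval, and the sixth had no peak although it was rich in CpG. The last is from the gene with the highest peak, whose summit lay 575 bp upstream of the main start in No gRNA.
ZNF431 (chr19:21141790-21142039, forward strand): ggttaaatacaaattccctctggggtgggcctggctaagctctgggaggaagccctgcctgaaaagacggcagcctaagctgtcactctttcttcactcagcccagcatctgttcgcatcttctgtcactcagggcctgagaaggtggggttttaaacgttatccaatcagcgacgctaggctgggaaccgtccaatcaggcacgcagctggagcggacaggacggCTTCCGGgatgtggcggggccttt
ZNF100 (chr19:21767580-21767829, reverse strand): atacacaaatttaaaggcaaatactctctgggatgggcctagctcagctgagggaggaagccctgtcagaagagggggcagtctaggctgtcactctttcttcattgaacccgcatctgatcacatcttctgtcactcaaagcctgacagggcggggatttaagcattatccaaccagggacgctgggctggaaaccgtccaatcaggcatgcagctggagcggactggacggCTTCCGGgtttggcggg
ZNF208 (chr19:22010944-22011193, reverse strand): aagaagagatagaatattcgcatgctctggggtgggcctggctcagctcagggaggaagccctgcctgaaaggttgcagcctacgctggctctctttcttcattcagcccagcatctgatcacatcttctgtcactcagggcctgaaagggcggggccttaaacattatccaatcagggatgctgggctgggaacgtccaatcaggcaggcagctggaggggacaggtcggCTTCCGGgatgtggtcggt
ZNF486 (chr19:20166964-20167213, forward strand): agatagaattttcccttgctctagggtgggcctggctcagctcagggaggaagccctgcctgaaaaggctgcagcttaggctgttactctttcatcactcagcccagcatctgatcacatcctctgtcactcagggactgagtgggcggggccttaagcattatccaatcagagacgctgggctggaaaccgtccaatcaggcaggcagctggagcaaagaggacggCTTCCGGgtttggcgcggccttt
ZNF548 (chr19:57389604-57389853, forward strand): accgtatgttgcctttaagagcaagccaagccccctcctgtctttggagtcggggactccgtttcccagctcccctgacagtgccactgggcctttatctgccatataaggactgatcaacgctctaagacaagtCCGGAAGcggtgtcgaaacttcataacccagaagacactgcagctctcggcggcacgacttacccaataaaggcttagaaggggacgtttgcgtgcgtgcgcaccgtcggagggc
ZNF582 (chr19:56393535-56393784, reverse strand): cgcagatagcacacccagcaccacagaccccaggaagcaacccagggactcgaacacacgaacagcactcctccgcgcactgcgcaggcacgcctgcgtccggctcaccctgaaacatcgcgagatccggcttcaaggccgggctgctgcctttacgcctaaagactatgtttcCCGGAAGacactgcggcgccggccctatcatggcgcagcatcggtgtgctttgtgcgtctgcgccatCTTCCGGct
ZNF558 (chr19:8832305-8832554, reverse strand): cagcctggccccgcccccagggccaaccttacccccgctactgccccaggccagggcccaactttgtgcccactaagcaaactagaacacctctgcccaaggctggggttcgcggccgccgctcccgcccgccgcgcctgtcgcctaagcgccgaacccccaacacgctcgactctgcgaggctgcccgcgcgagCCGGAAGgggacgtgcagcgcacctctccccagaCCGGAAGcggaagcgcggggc

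Most ZNF genes had an accessible start in both libraries. With the main start taken as that of the Ensembl canonical transcript and a reach of 1000 bp, 179 of the 249 genes (71.9%, exact binomial interval 65.9 to 77.4%) had a peak in both, 58 in neither, 10 in No gRNA only (4.02%, 1.94 to 7.26%, background 2.62% of all protein-coding genes) and 2 in All gRNA only (background 1.43%). The same share was 60.3% over all protein-coding genes, 51.9% over the 1227 other protein-coding genes of chromosome 19, 80.8% over the 266 ZNF genes of other chromosomes and 38.2% over the 110 other protein-coding genes inside the sub-clusters. Within 4000 bp of any start, 186 ZNF genes (74.7%) had a peak in both libraries, 6 in No gRNA only (2.41%, background 2.92%), 1 in All gRNA only (0.402%, background 2.56%) and 56 in neither (22.5%, against 23.2% of all protein-coding genes). Within 4000 bp the shares of one-library genes were under the background, while at the main start the share in No gRNA only was above it, with the background inside its interval. A peak at the start of a ZNF gene in one library was nearly always matched by one in the other. This was not particular to ZNF genes. Over all protein-coding genes, 12047 had matched main start peaks, while 523 (No gRNA) and 285 (All gRNA) had one in a single library.

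**Figure D1:**
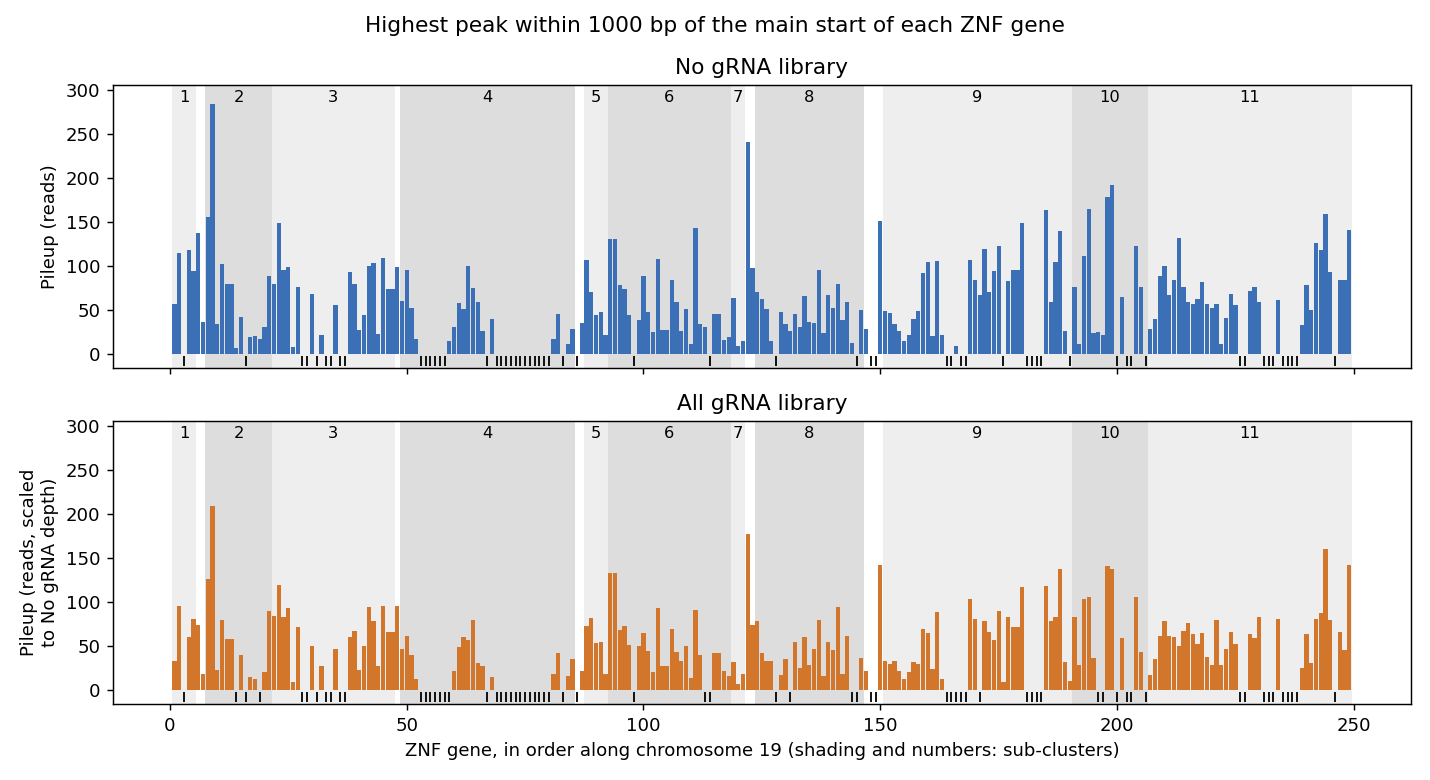
Height of the highest peak within 1000 bp of the main start of each of the 249 ZNF genes, in order along chromosome 19. The upper panel gives No gRNA in reads and the lower panel All gRNA in reads scaled to the depth of No gRNA, ticks under the axis mark genes without a peak, and shading marks the 11 sub-clusters. The same genes stand out in both panels, ZNF558 in sub-cluster 2 is highest at 284 and 209, and the middle of sub-cluster 4 is empty in both.

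At the 179 genes with a main start peak in both libraries, heights ranged from 8 to 284 reads in No gRNA with a median of 63, and from 5 to 155 in All gRNA with a median of 42, or 56.5 after scaling. The medians over all protein-coding genes were 65 in No gRNA and 55.2 scaled in All gRNA. The heights of the genes were correlated between the libraries (Pearson's r of the log2 heights 0.903 over 179 genes, a description in which neighbouring genes can share a peak). Peak widths had medians of 607 and 569 bp, against 651 and 565 bp over all protein-coding genes. Compared with No gRNA, the All gRNA peak was lower after scaling at 133 of the 179 genes and narrower at 126. Over all peak pairs within 1000 bp of a protein-coding start, 70.3% were lower and 67.2% narrower, and the share that is lower depends on the scaling.

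The summits lay close to the starts. In No gRNA the median position of the summit was 35 bp upstream of the main start (signed median -35 bp, interquartile range -130 to 22), against -83 bp over all protein-coding genes and -114 bp over the other genes of chromosome 19. Of the 179 summits, 139 (77.7%) were within 150 bp of the start. In All gRNA the median was -31 bp.

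**Figure D2:**
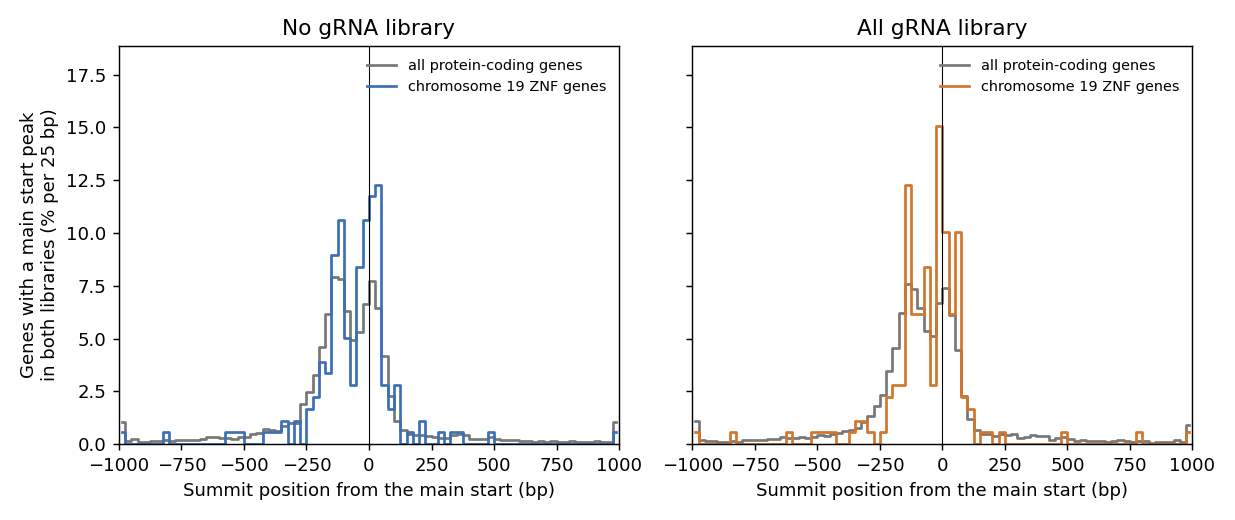
Position of the summit of the main start peak relative to the start, in bins of 25 bp, negative values being upstream, for No gRNA (left) and All gRNA (right). Lines give the percent of genes with a peak in both libraries per bin for the chromosome 19 ZNF genes (coloured) and all protein-coding genes (grey), and in both libraries the ZNF genes have fewer summits beyond 150 bp upstream than all genes.

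The highest peaks were shared by both libraries. ZNF558, which encodes a KRAB zinc finger protein and starts 73 bp from the divergent gene MBD3L1, had 284 reads in No gRNA (chr19:8832243-8833174, 932 bp wide) and 155 in All gRNA (874 bp). The summit of this peak lay 575 bp upstream of the main start in No gRNA and 617 bp in All gRNA. The height at ZNF574, a solitary gene, was 241 and 132 reads. ZNF584 in sub-cluster 11 had 206 and 129 reads at an upstream start (chr19:58401204-58401715) and 93 and 59 at its main start. ZNF444, which encodes a SCAN domain protein, had 192 and 102 reads, and ZNF787 had 179 and 105. After scaling, all 5 were lower in All gRNA and none of them passed 2-fold, which is a description only, since they were chosen for height and 83.5% of all pairs in the highest of 5 equal classes of No gRNA height were lower.

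The widest start peak was that of ZNF524, at 1362 bp in No gRNA and 856 bp in All gRNA, with 112 and 77 reads. A peak of 1129 bp lay over the divergent starts of ZNF345 and ZNF790 in No gRNA (108 reads), while in All gRNA this region held 2 separate peaks, of 331 bp (69 reads) and 478 bp (58 reads). ZNF470 had a width of 1039 bp in No gRNA and 550 bp in All gRNA, and ZNF302 had 1006 and 790 bp. All 5 genes were chosen for their width in No gRNA, so the narrower All gRNA peak at each is a description. Over all 202 ZNF peaks with exactly 1 partner in each list, the median difference in width was -39 bp (All gRNA minus No gRNA), against -37 bp over all such pairs at protein-coding starts.

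Sub-cluster 4, from ZNF101 to ZNF254 (chr19:19668796-24129968), had the smallest share of accessible starts. It spanned 4.46 Mb with 37 genes, and 16 of them (43.2%, 27.1 to 60.5%) had a main start peak in both libraries, against 62.5 to 100% in the other 10 sub-clusters. Another 20 genes had no peak anywhere within reach of a start or in the body in either library, and ZNF66 had a start peak of 15 reads in No gRNA only. The sub-cluster held 5.16 peaks per Mb in No gRNA and 5.83 in All gRNA, while the other 10 sub-clusters ranged from 13.96 to 37.9 and from 17.4 to 37.2.

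The genes without a peak lay side by side. From ZNF43 to ZNF724 (chr19:21804946-23250394), 12 consecutive ZNF genes over 1.45 Mb had no main start peak, and neither list held a single peak in that stretch. They were ZNF43, ZNF208, ZNF257, ZNF676, ZNF729, ZNF98, ZNF492, ZNF99, ZNF723, ZNF728, ZNF730 and ZNF724, among them the 2 genes with the most fingers. A second run of 6 genes, from ZNF93 to ZNF626 over 0.761 Mb, was also without any peak. ZNF93 encodes a repressor of young LINE-1 elements, and ZNF91, which encodes a repressor of SVA elements, had a peak of 17 reads in No gRNA and 14 in All gRNA just beyond the longer run.

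Between the 2 runs, 7 consecutive genes from ZNF85 to ZNF493 had main start peaks in both libraries. ZNF431 was the highest in No gRNA, with 100 reads (605 bp), and had 42 in All gRNA (578 bp). ZNF708 had 75 and 59 reads and ZNF714 had 52 and 45, so both were above ZNF431 in All gRNA. The lowest of the 7 was ZNF493 in No gRNA, with 26 reads, and ZNF85 in All gRNA, with 16. At the distal end of the sub-cluster ZNF254 had 29 and 26 reads at its main start. Over the 16 genes with a peak in both, the median height was 49 and 28 reads.

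Elsewhere, 33 genes without any peak were found. Sub-cluster 11 held 9 of them (ZNF154, ZNF671, ZNF814, ZNF587, ZNF418, ZNF256, ZNF606, ZNF135 and ZNF132). Sub-cluster 9 held 8 (ZNF610, ZNF880, ZNF534, ZNF578, ZNF415, ZNF347, ZNF665 and ZNF677). Sub-cluster 3 held 6 (ZNF439, ZNF69, ZNF763, ZNF878, ZNF844 and ZNF625) and sub-cluster 10 held 4 (ZNF582, ZNF667, ZNF471 and ZNF835). There were 2 in sub-cluster 6 (ZNF382 and ZNF793) and 2 in sub-cluster 8 (ZNF404 and ZNF229). The others were ZNF560 in sub-cluster 2 and the solitary ZNF541. Several of these genes, such as ZNF154, ZNF671, ZNF582, ZNF471 and ZNF132, are known for promoter methylation in carcinomas, and methylation was not analysed here. Short runs were also present, with 4 genes from ZNF415 to ZNF677 and 4 from ZNF418 to ZNF135, and no peak of either list lay inside them. In all, 53 of the 249 genes had no peak in either library.

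Long accessible runs were found in the other sub-clusters. Sub-cluster 11 held 19 consecutive genes with main start peaks in both libraries, from ZNF264 to ZNF551 over 0.526 Mb. Sub-cluster 6 held 14, from ZNF461 to ZNF569, sub-cluster 9 held 13, from ZNF175 to ZNF480, and sub-cluster 8 held 12, from ZNF230 to ZNF112. Sub-clusters 5 and 7 had a main start peak in both libraries at all of their 5 and 3 genes.

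**Figure D3:**
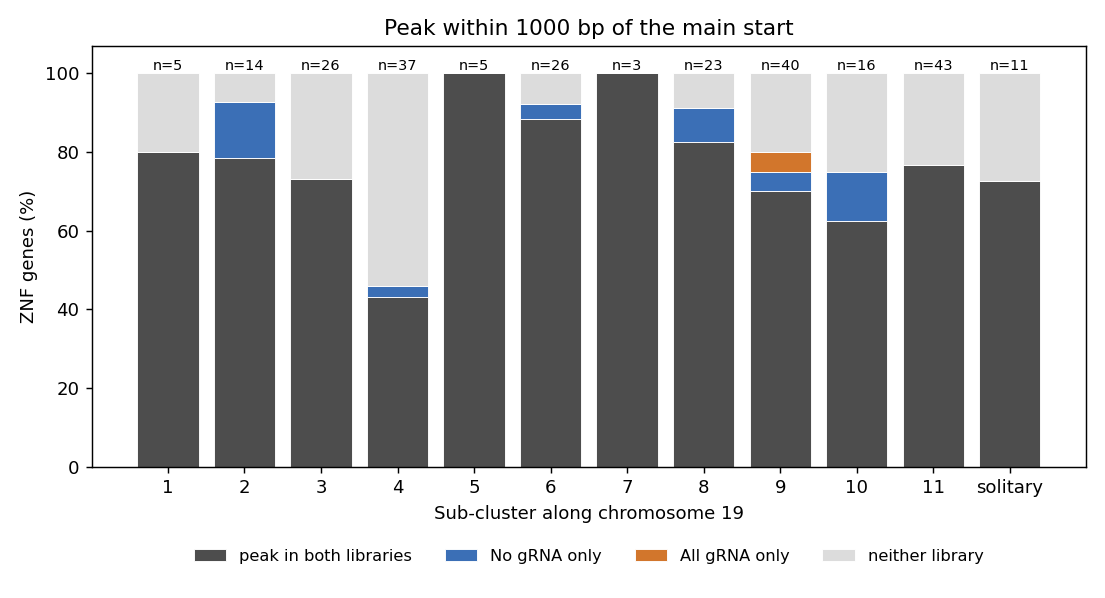
Percent of the ZNF genes of each sub-cluster, and of the solitary genes, with a peak within 1000 bp of the main start in both libraries, in either one alone, or in neither. The number of genes stands above each bar, and sub-cluster 4 has the smallest share with a peak in both, 43.2% of 37 genes.

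The median heights of the main start peaks also varied along the chromosome. In No gRNA they were 105 reads in sub-cluster 1, 94.5 in sub-cluster 10, 84 in sub-cluster 9 and 80 in sub-cluster 2, and in All gRNA they were 52.5, 69.5, 50.5 and 43. Sub-clusters 4, 5, 6 and 8 had medians of 46 to 50 reads in No gRNA and 28 to 41 in All gRNA. The 3 genes of sub-cluster 7 had a median of 15 and 14 reads, although ZNF546 in it reached 64 and 24. In No gRNA the highest members of other sub-clusters were ZNF57 (118 and 45 reads, sub-cluster 1), ZNF627 (149 and 89, sub-cluster 3), ZNF302 (107 and 54, sub-cluster 5), ZNF527 (144 and 68, sub-cluster 6), ZNF225 (96 and 59, sub-cluster 8) and ZNF845 (164 and 88, sub-cluster 9). Of these, ZNF627 alone was also the highest of its sub-cluster in All gRNA, where ZNF555 (71 reads), ZNF181 (61), ZNF565/ZNF146 (99), ZNF235 (70) and ZNF761 (102) led the others.

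Genes whose main start lay near a divergent main start were accessible in each case. For 13 ZNF genes the main start lay within 1000 bp of the main start of another protein-coding gene transcribed away from it, the partner being another ZNF gene for 8 of them, as for ZNF490 and ZNF791 (107 bp apart) and ZNF829 and ZNF568 (41 bp apart). All 13 had a main start peak in both libraries (exact interval 75.3 to 100%), with median heights of 74 and 49 reads, while 166 of the other 236 (70.3%, 64.1 to 76.1%) had one. Divergent partners share the accessible region, so the 13 genes are not independent observations. The result holds for main starts only. The RefSeq promoter windows of ZNF382, which had no peak in either library, and ZNF529 also overlapped on opposite strands. So did those of ZNF570, with a main start peak in No gRNA only, and ZNF569.

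Start peaks were also compared between genes with and without an encoded KRAB domain. Of the 210 genes with a KRAB A box, 148 (70.5%, 63.8 to 76.6%) had a main start peak in both libraries. Of the 39 in which none was found, 31 did (79.5%, 63.5 to 90.7%). The intervals overlapped.

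Promoter sequence was compared between genes with and without a peak, using the 300 bp RefSeq window from 250 bases before to 50 after the start, which was matched for 218 of the 249 genes and for 15315 protein-coding genes. CpG content was given as the ratio of observed to expected CpG dinucleotides. Its median was 0.763 for the ZNF genes and 0.768 for all protein-coding genes. ZNF promoters with a main start peak in both libraries had a median of 0.789 and those with none 0.614, while over all protein-coding genes the medians were 0.851 and 0.331. ZNF promoters without a peak thus held more CpG than other promoters without a peak.

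Much of the difference among ZNF genes was a difference between sub-clusters. The median ratio was 0.438 in sub-cluster 4, where promoters with a peak (0.452, 13 genes) and without (0.426, 15 genes) lay close together. Over all other ZNF genes the medians were 0.799 with a peak (146 genes) and 0.759 without (33 genes), and the ranges overlapped almost entirely. ZNF582, which had no peak, had a ratio of 0.974, and ZNF431, which had the highest start peak of its sub-cluster in No gRNA, had a ratio of 0.549.

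The ETS core CCGGAAG, searched on both strands, stood in 99 of the 218 ZNF promoters (45.4%), against 14.4% of all protein-coding promoters, 34.1% of those of ZNF genes on other chromosomes and 12.96% of other promoters of chromosome 19. The centre of the match had a median position of -15 bp from the start (interquartile range -34 to 4 over 111 matches). CCAAT, searched in the same way, stood in 54.1% of ZNF promoters and 36.6% of all, TATAAA in 1.83% and 9.64%, and the E-box CAGGTG, the core bound by ZEB1, in 14.7% and 19.8%. Exact motifs of NRF1, ZNF143 and YY1 stood in 2.29%, 0.917% and 0.917% of ZNF promoters and in 1.72%, 0.392% and 1.40% of all. None of these motifs contains another, and a match is a description of the window, not a bound site.

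The ETS core was about as frequent in ZNF promoters with a peak as in those without. It stood in 44.7% of the 159 ZNF promoters with a main start peak in both libraries and in 47.9% of the 48 without, while over all protein-coding genes it stood in 20.3% of promoters with and 3.65% of promoters without a peak. Its share differed between sub-clusters. In sub-cluster 4 it stood in 10 of 13 promoters with a peak and 10 of 15 without, in sub-clusters 9 to 11 in 38 of 62 and 13 of 19, and elsewhere in 23 of 84 and 0 of 14. All 29 matched promoters of sub-cluster 4 held CCAAT. At the 71 promoters with both the core and a peak, the No gRNA summit lay a median of 96 bp from the nearest match and within 150 bp at 50.

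The promoters printed above show this for sub-cluster 4. ZNF431 (100 and 42 reads) and ZNF208 (no peak) were 87.9% identical over 264 aligned bases of the 300 bp windows, and both held the ETS core, at 24 and 19 bases before the start. ZNF431 and ZNF486 (no peak) were 86.6% identical over 283 bases, and ZNF100 (40 and 11 reads) and ZNF208 were 85.4% identical over 261 bases. ZNF431 was closer to ZNF714, which also had a peak (91.3% over 298 bases). ZNF486 was closer to ZNF90, which also had none (91.9% over 270 bases). ZNF714 and ZNF90 both lacked the ETS core. The best match of each promoter to another ZNF promoter had a median identity of 86.1% for 11 genes with a peak and 85.0% for 15 without. No pair of distinct ZNF promoters reached 95% identity over at least 150 bases, and the part of read mappability in the missing peaks was not tested.

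ZNF peaks were concentrated at starts. Each list held 239 ZNF peaks, of which 219 in No gRNA and 209 in All gRNA had their summit within 1000 bp of a ZNF transcript start, 13 and 23 in an intron, 4 and 4 in the flank of a start window, and 3 and 3 near the start of another gene. Last exons were searched for peaks with a summit more than 1000 bp from any protein-coding start. No such peak of either list lay in a last exon of a ZNF gene, over 926 kb with a median length of 3338 bp. Last exons of ZNF genes on other chromosomes held 14 and 10 such peaks (14.4 and 10.3 per Mb), and those of all protein-coding genes held 19.5 and 18.2 per Mb. In gene bodies outside the gene's own start windows the ZNF genes held 17 peaks in No gRNA and 26 in All gRNA, or 2.14 and 3.27 per Mb. Peaks in a start window of a neighbouring gene were included. Counted in the same way, ZNF genes of other chromosomes held 12.3 and 12.9 per Mb and other genes of chromosome 19 held 12.4 and 11.8. Start windows of any ZNF gene held 228 of the 239 ZNF peaks in No gRNA and 219 of the 239 in All gRNA.

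The intervals between the genes were sparse as well. Inside the sub-clusters, counting peaks of any gene, there were 19.7 and 20.04 peaks per Mb, against 37.6 and 36.2 in the rest of chromosome 19. Counting only peaks farther than 1000 bp from any protein-coding start, the densities were 3.51 and 4.75 per Mb inside the sub-clusters and 18.2 and 17.3 outside. In No gRNA 82.2% and in All gRNA 76.3% of the peaks inside the sub-clusters were within 1000 bp of a start, against 51.7% and 52.0% outside.

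The few strong peaks away from starts were shared. ZNF507, a solitary gene, had an intronic peak of 145 reads in No gRNA (chr19:32373500-32374300) and 64 in All gRNA. ZNF83 had an intronic peak of 75 and 44 reads, the readthrough gene ZNF816-ZNF321P one of 78 and 41 reads, and ZNF254 one of 36 and 33 reads. ZNF254 had 2 body peaks outside its start windows in No gRNA and 5 in All gRNA. The other 2 genes ranked by body peaks, ZNF625-ZNF20 and ZNF586, each had 2 such peaks in both libraries, and all of them lay in start windows of neighbouring ZNF genes.

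ZNF peaks were shared between the libraries more often than peaks elsewhere. Sharing meant that at least 1 bp of the peak was also covered by a peak in the second library, which held for 218 of the 239 No gRNA peaks (91.2%, 86.9 to 94.5%) and 219 of the 239 All gRNA peaks (91.6%, 87.4 to 94.8%), against 75.3% and 76.2% of all peaks, so that 21 No gRNA peaks (background 24.7%) and 20 All gRNA peaks (background 23.8%) were found in one library. ZNF peaks were also higher than peaks in general, with a median of 52 reads in No gRNA against 19 and of 33 in All gRNA against 14, and the part of height in the shared percent was not tested. On the rest of chromosome 19 79.7% and 84.6% of peaks were shared.

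One-library peaks were low and lay in different places. Of the 21 in No gRNA, 19 were within 1000 bp of a ZNF start, 1 in an intron and 1 in a flank. Of the 20 in All gRNA, 8 were within 1000 bp of a ZNF start, 11 in an intron and 1 in a flank. Their median height was 15 reads in No gRNA and 8 in All gRNA, and the highest had 34 and 16 reads. The 11 intronic peaks of All gRNA had 5 to 14 reads and belonged to ZNF254 (3 peaks), ZNF564 (2), ZNF556, ZNF426, ZNF675, ZNF536, ZNF350 and the overlapping genes ZNF432 and ZNF841.

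A start window peak in No gRNA only was found at 6 genes. ZNF155 had the strongest, with 26 reads, a width of 463 bp and a −log10 q of 27.6, its summit 6 bp from the main start. ZNF66 had 15 reads, ZNF561 had 17 over 827 bp, ZNF285 had 13, ZNF528 had 10 and ZNF177 had 7. In All gRNA only, ZNF320 had a peak of 7 reads. Of these 7 peaks, that of ZNF155 stood furthest above the lowest listed heights of 5 and 4 reads, and those of ZNF177 and ZNF320 were near them.

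At 4 further genes a main start peak was listed in No gRNA only while another start had a peak in both. ZNF570 had a peak of 31 reads in No gRNA alone, and the nearby start of the neighbouring gene ZNF569 had 34 reads in No gRNA and 30 in All gRNA. ZNF580 and ZNF581 had 25 and 22 reads in No gRNA alone, and an upstream start of the pair had 46 and 29. ZNF83 was counted there because its peak of 67 reads in No gRNA reached into the 1000 bp while the narrower All gRNA peak of 49 reads beside it did not. ZNF331 had the reverse pattern, with 8 reads at the main start in All gRNA only and 81 and 50 reads at an upstream start.

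Heights were then compared at the 202 ZNF peaks with exactly 1 partner in each list. A pair was called when the depth-scaled ratio passed 2-fold and its exact counting interval excluded 1. Called higher in All gRNA were 4 pairs (1.98%, background 2.44% of all 48041 pairs), and called lower were 5 (2.48%, background 3.27%). Both shares were under those of all pairs. Of the 184 pairs within 1000 bp of a ZNF start, 3 were called higher (1.63%) and 4 lower (2.17%). Over all pairs within 1000 bp of a protein-coding start the shares were 0.849% and 2.76%. Against these, the ZNF share was above for rises and under for falls, on a few pairs each. The median log2 ratio was -0.25 (interquartile range -0.49 to 0.02), with 73.8% of pairs lower in All gRNA, against -0.11 over all pairs, -0.24 over other pairs of chromosome 19 and -0.20 over all pairs at protein-coding starts. When the median ratio of all pairs set the scale in place of the background, the ZNF median was -0.14, and when the other pairs of chromosome 19 set it, the median was -0.0083.

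ZNF548 showed the largest called fall at a high peak, with 132 reads in No gRNA (chr19:57389663-57390213) and 37 in All gRNA, a scaled ratio of 0.377 (0.255 to 0.547). Its width hardly moved, from 551 to 543 bp. ZNF45 had 48 and 13 reads (ratio 0.364, 0.181 to 0.683) and ZNF100 had 40 and 11 (0.370, 0.171 to 0.735). The main start peak of ZNF233, which was also assigned to the neighbouring gene ZNF235, had 39 and 14 reads (0.483, 0.242 to 0.909). ZNF235 had a separate peak of 80 and 70 reads at its own main start, which was not called. A peak in the flank of a ZNF846 start had 26 and 8 reads (0.414, 0.162 to 0.942). The falls at ZNF548, ZNF45 and ZNF100 remained called under both other scalings, while those at the ZNF233 start and in the ZNF846 flank did not.

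The called rises were at low peaks, where over all pairs the rises lay too: the lowest of 5 equal classes of No gRNA height held 628 rises and 0 falls, and the highest held 6 rises and 328 falls. An intronic ZNF846 peak had 10 reads in No gRNA and 21 in All gRNA (ratio 2.83, 1.27 to 6.72), so the peaks of this gene moved in both directions. The starts of ZNF579 and ZNF530 each had 12 and 21 reads (2.35, 1.11 to 5.25), and ZNF283 had 15 and 25 (2.24, 1.14 to 4.58). Sub-cluster 8 held called pairs in both directions, the rise at ZNF283 and the falls at ZNF45 and ZNF233.

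**Figure D4:**
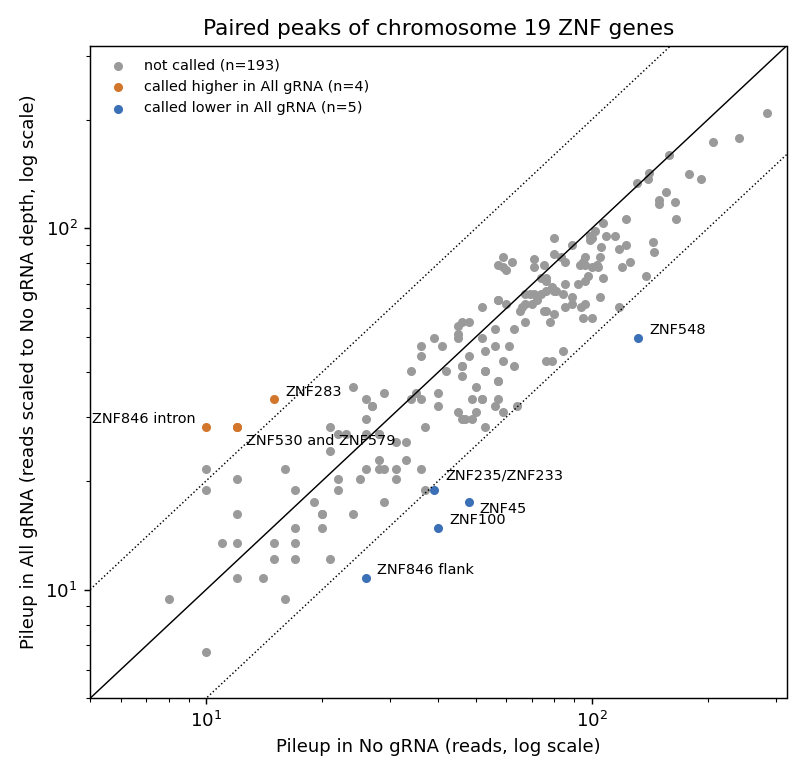
Height of the 202 paired ZNF peaks in No gRNA (horizontal, reads) and All gRNA (vertical, reads scaled to the depth of No gRNA), both on log scales. The solid line marks equal heights and the dotted lines 2-fold, and the 4 pairs called higher and 5 called lower in All gRNA are coloured and named, ZNF548 being the highest of them at 132 and 49.8.

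The median log2 ratio ranged from -0.57 in sub-cluster 7 (3 pairs) to 0.20 in sub-cluster 5 (5 pairs), and among sub-clusters with at least 20 pairs from -0.31 in sub-cluster 9 to -0.06 in sub-cluster 6. Sub-cluster 4 had a median of -0.14 over 17 pairs, with 1 pair called lower. Solitary genes had -0.43 over 11 pairs.

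The co-factors through which KRAB proteins act were accessible in both libraries. All 22 genes of a list of KRAB co-repressors and related heterochromatin genes, ZNF10 included, had a main start peak in both, against 60.3% of all protein-coding genes. TRIM28, which lies beyond the distal end of sub-cluster 11, had 205 and 117 reads (scaled ratio 0.768, 0.607 to 0.968), SETDB1 had 49 and 29 (0.796, 0.485 to 1.29) and ZNF10 had 188 and 128 (0.916, 0.726 to 1.15). None of the 19 genes of the list with a single pair of start peaks passed 2-fold.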

How the data were processed

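ATAC-seq peak lists of 2 SUM159 libraries were analysed, No gRNA and All gRNA, grouped by their labels. Reads were trimmed (fastp) and aligned to hg38 (bowtie2) by the authors, who discarded mitochondrial reads, excluded regions and duplicates before calling peaks for each library separately with MACS2, with no control, an extension of 150 and a shift of -75. The deposited values used were the fold (a ratio of pileup to local background), the −log10 p and the −log10 q. The deposited score was not used. From the deposited fold and −log10 p, the pileup was solved for 100% of peaks. This step was tested on simulated data. The lists held 74757 and 75217 peaks, of which 95 and 89 lay on alternate contigs of chromosome 19 and were not assigned. Depth was taken from the genome-wide background, 0.652 and 0.484 reads. Genes came from GENCODE release 44 and promoters from RefSeq. A KRAB A box required 12 of 18 consensus positions. Intervals were exact (Clopper-Pearson). Python 3.11.15, scipy 1.17.1, pandas 2.3.3, biopython 1.88 and blastn 2.17.0+ were used. The genes named were the highest, the widest, those with a peak in one library, the called pairs, those with most body peaks, the highest of each sub-cluster and those without peaks. The rest were named for a known role or a strong peak after their values were seen. The members and lists were chosen with earlier results of these data known.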

Additional observations from a re-analysis of the deposited data

How the results depend on the processing

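No paired analysis was possible because there was 1 library per condition, and no replicate could be left out. Of 67 alternative values, 48 stayed within the counting interval or 1.5 times the count and 19 moved. A change of direction was possible only for the median width difference and the median log2 ratio, and neither changed direction. Genes with a start window peak in No gRNA only rose to 13 at a −log10 q of at least 10. Genes with one in All gRNA only numbered 2 with windows of 10000 bp, at the main start alone and at a −log10 q of at least 10, and 0 at a −log10 q of at least 5 and among the 50000 strongest peaks. Shared ZNF peaks came to 84.5% of each list with an overlap of at least 50%, and to 83.3% of each with summits within 150 bp. In All gRNA they came to 95.5% at a −log10 q of at least 5, 97.4% at 10 and 97.1% among the 50000 strongest, and in No gRNA to 85.9% at 10. The median log2 ratio was -0.14 when scaled by all pairs (scale 0.690) and -0.0083 when scaled by other pairs of chromosome 19 (0.629). Pairs called lower fell to 3 under both scalings and with summits within 150 bp. Pileups of a few reads limit what can be said of low peaks, and counts at neighbouring bases are not independent molecules.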
